A study of Mus musculus with 7 samples.

Results

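The genes described are 8 that encode secreted or shed signals of the gastric gland: the hedgehog ligands Shh and Ihh, the EGF receptor ligands Tgfa, Hbegf, Areg and Egf, the growth factor Igf1, and Fst, which encodes the activin antagonist follistatin. They were taken by name from tables of 18907 features, all 8 being present in each table except that of corpus replicate 1, which has no row for Fst. The transcripts came from single cells of freshly isolated gastric glands of wild-type C57BL/6 mice, with no treatment, in 3 plates labelled pylorus, the outlet of the stomach, and 4 plates labelled corpus, its acid-producing body. SORT-seq was used, in which a sorter places 1 living cell in each of the 384 wells of a plate and CEL-seq2 chemistry tags each transcript with a unique molecular identifier (UMI). Wells with at least 1000 UMIs, spike-in RNAs left out, were kept as cells, 2235 of 2688 in all, 983 from pylorus plates and 1252 from corpus plates. The labels give neither age nor sex, nor which plates came from which animals, so p-values measure the spread between plates, which may be technical.

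Hedgehog ligands are made by epithelial cells and are received mainly by the mesenchyme beneath them, where Ptch1 and Gli1 are targets. Ligands of the EGF receptor are made as membrane proteins, are released by proteases such as Adam17, and drive mucous cell growth in the stomach, where Tgfa is known as a brake on acid secretion. Igf1 acts through Igf1r and is bound in tissue by Igfbp proteins, and follistatin binds activins and keeps them from their receptors.

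Pylorus replicates 1 to 3 held a median of 8240, 20326 and 23400 UMIs per kept cell, against 6898 to 25544 in the corpus plates. Spike-in RNAs took 6.55% of UMIs in pylorus replicate 1 and 4.27% in corpus replicate 1, against 0.256 to 0.426% in the other 5 plates. These same plates, with corpus replicate 2, filled other clusters than pylorus replicates 2 and 3 and corpus replicates 3 and 4 within the pit-like, neck-like and chief-like classes. Gast, the antral hormone gastrin, and Pdx1, a homeobox gene of antrum and duodenum, had 0 UMIs in all 3 pylorus plates, while the library labelled corpus replicate 1 held 3340 UMIs of Gast and 6 of Pdx1. The pylorus plates also held parietal-like and chief-like cells, so the regions are given here as labelled, and differences that corpus replicate 1 bears on are given with and without it.

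Each member had its own pattern over the cell classes. Classes were clusters named by marker genes, the 8 members being left out of the genes used for clustering, and levels are CPM, the count scaled to a total of 1e6 UMIs, of the summed cells of a class in a plate, for plates with at least 10 such cells. No test was made between classes, which are clusters of the same cells. Summed neck markers stood at 11050 CPM in neck-like cells, against 13160 CPM in proliferating-like cells and 17220 and 15360 CPM in unnamed clusters. Summed chief markers stood at 165300 CPM in neck-like and 181200 CPM in chief-like cells. By these sums the neck-like class is not set apart from those cells, so its name is a loose one. Pit-like cells, the surface mucous cells, held 82.9% of the 755 UMIs of Shh and 47.1% of the 306 UMIs of Tgfa, and 25.1% of all UMIs. They also held 57.6% of the 139 UMIs of Areg, with 26.6% in proliferating-like cells. Chief-like cells, which make pepsinogen, held 83.6% of the 140 UMIs of Egf with 17.2% of all UMIs, and endocrine-like cells held 97% of the 1903 UMIs of Fst with 7.58% of all UMIs. Igf1 (1631 UMIs) was spread over neck-like cells with 43.8%, chief-like cells with 25.6% and parietal-like cells with 12.9%. Ihh (1741 UMIs) and Hbegf (1193 UMIs) were the broad ones, no class holding more than 32.6% of Ihh or 20.2% of Hbegf. The class with the highest mean level was the same for all 8 members with a coarser clustering and with wells of at least 3000 UMIs. It passed from proliferating-like to pit-like cells for Areg without pylorus replicate 1 and in pylorus replicates 2 and 3 with corpus replicates 3 and 4 alone, and from endocrine-like to neck-like cells for Hbegf without pylorus replicate 3, without corpus replicate 2, or with members among the genes used for clustering.

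**Figure D1:**
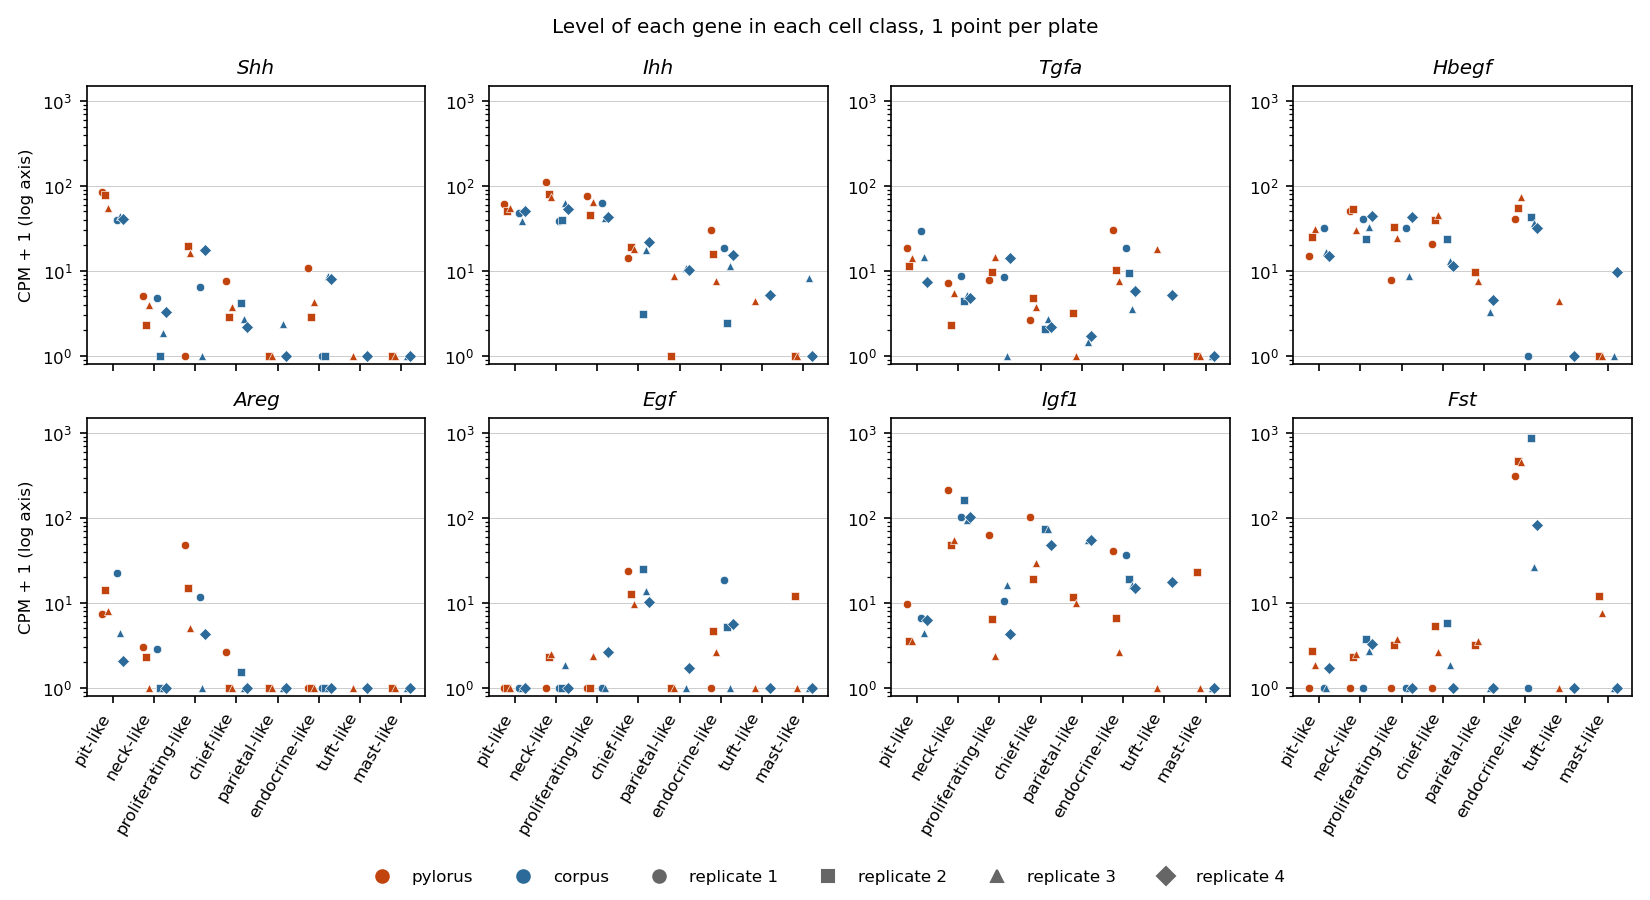
Level of each of the 8 genes (CPM + 1, log axis) in 8 cell classes, 1 point per plate with at least 10 cells of the class, pylorus plates to the left of corpus plates within a class. Shh is highest in pit-like, Egf in chief-like and Fst in endocrine-like cells, while Ihh and Hbegf are spread over several classes.

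Shh, a ligand known from parietal and pit cells of the gland, had its highest level in pit-like cells. It stood at 83.4, 76.0 and 54.2 CPM in the pit-like cells of pylorus replicates 1 to 3, against 38.2, 43.5 and 39.3 CPM in those of corpus replicates 1, 3 and 4, and corpus replicate 2 held too few such cells. Every pylorus plate lay above every corpus plate. In parietal-like cells, which reached 10 cells in 4 plates, Shh stood at 0 and 0 CPM in pylorus replicates 2 and 3, against 1.34 and 0 CPM in corpus replicates 3 and 4, with 3 UMIs in 139 cells over all plates. Proliferating-like cells came second to pit-like cells, with a mean of 9.26 CPM over 6 plates, and pit-like cells were higher in all 6. The next steps down, endocrine-like (4.26), chief-like (2.86) and neck-like cells (2.18 CPM), had the same order in 4 of 6 plates at each step and differed by less than their spread. Of the pit-like cells, 60.4% had a Shh UMI in pylorus plates (122 of 202, 95% Wilson interval 53.5 to 66.9%), against 42.8% in corpus plates (98 of 229, 36.6 to 49.3%), at median depths of 27140 and 28380 UMIs. With each cell thinned to 3000 UMIs and 11 and 9 shallower cells left out, the shares were 16.2% in pylorus and 9.29% in corpus plates. Intervals and floors given here cover counting error only, and these shares pool the cells of a region. By plate, 29 of 63, 47 of 69 and 46 of 70 pit-like cells had a Shh UMI in pylorus replicates 1 to 3. In corpus replicates 1, 3 and 4 it was 12 of 63, 43 of 84 and 41 of 78, so the regions overlapped. The pit-like cells of pylorus and corpus replicate 1 were shallow, at medians of 8999 and 8818 UMIs. Mast-like cells, which should lack the gene, had a Shh UMI in 0.87% of cells (1 of 115) at a median of 3691 UMIs, and in 0% after thinning.

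The Shh difference in pit-like cells did not pass the test across genes. Summed counts were fitted with limma on log2(CPM + 2), a scale that understates the change of low genes, and p-values were adjusted by the Benjamini-Hochberg method over all genes tested, with a threshold of 0.05. The log2 difference, pylorus minus corpus, was 0.81 ± 0.23 (SE, n = 3 plates each, limma, unadjusted p = 0.00722, adjusted p = 1). Of 8781 genes tested in pit-like cells 0% passed, 201 having an unadjusted p under 0.05 and 1 passing with voom weights, and 4.58% separated the regions with pylorus higher. Of the 6 members tested Shh did so. Without corpus replicate 1 the difference was 0.64 and in pylorus replicates 2 and 3 and corpus replicates 3 and 4 alone 0.54 ± 0.17, and with wells of at least 3000 UMIs it was 1.27 ± 0.47.

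Pit-like cells fell into clusters with different Shh levels, an aspect looked at after the values were seen. The cluster led by Lypd8 and Ifit1 had 113 and 80.1 CPM of Shh in pylorus replicates 2 and 3, against 78.8 and 63.7 CPM in corpus replicates 3 and 4. The cluster led by Aldh3a1 and Gkn1 had 30.7 and 28.4 CPM in the same pylorus plates, against 27.1 and 26.3 CPM in the same corpus plates. The first cluster made up 47.8 and 41.4% of pit-like cells in pylorus replicates 2 and 3, against 27.4 and 32.1% in corpus replicates 3 and 4. Both pylorus plates had a larger share of this cluster than both corpus plates, while corpus replicate 3 had a smaller share but a higher Shh level in the whole class than corpus replicate 4. The part of this share in the difference was not tested. A further pit-like cluster, led by Fabp2 and Sptssb, held 93.7% of pit-like cells in pylorus replicate 1 and 100% in corpus replicate 1. Within it Shh stood at 81.1 CPM in pylorus replicate 1, against 38.2 CPM in corpus replicate 1. The genes with the class and plate profile most like that of Shh were Rfk (r = 0.81), Ankdd1b, Mfsd7a, Aqp3 and Cdc42ep2 (r = 0.79), by Pearson's r of log2(CPM + 2) over 42 sums that share cells, plates and depth.

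Ihh, the ligand known in the stomach from surface and pit cells, was found in mucous classes and proliferating-like cells alike. In neck-like cells it stood at 110, 78.7 and 73.7 CPM in pylorus replicates 1 to 3, against 38.0, 38.7, 61.3 and 52.0 CPM in corpus replicates 1 to 4. All pylorus plates lay above all corpus plates in this class. Of the corpus replicate 1 cells, 19 formed a cluster found in that plate alone, with 26.9 CPM against 44.0 CPM in the others. In pit-like cells Ihh stood at 59.4, 50.1 and 53.7 CPM in pylorus replicates 1 to 3, against 46.7, 37.7 and 49.6 CPM in corpus replicates 1, 3 and 4. The lowest pylorus and the highest corpus plate were next to each other here, and on the TMM scale of the fit the groups overlapped. Proliferating-like cells had 75.1, 44.8 and 64.3 CPM in pylorus replicates 1 to 3, against 61.2, 41.2 and 41.4 CPM in corpus replicates 1, 3 and 4. The groups overlapped through corpus replicate 1 alone, the other corpus plates lying below all pylorus plates. The log2 difference was 0.32 ± 0.26, and 0.40 without corpus replicate 1 (limma, adjusted p = 1 and 0.995). Of 6670 genes tested in proliferating-like cells 0% passed, with 129 at an unadjusted p under 0.05 and 0 with voom weights, and 3 members were tested, with no unadjusted p under 0.05. The mean levels of these classes, 64.7 in neck-like, 54.7 in proliferating-like and 49.5 CPM in pit-like cells, differed by less than their SDs between plates, of 25.5, 14.2 and 7.24 CPM. The means of chief-like (14.6), endocrine-like (13.5) and parietal-like cells (6.71 CPM) were lower, and pit-like cells lay above chief-like cells in 5 of 5 plates. A cluster left without a name and led by the replication genes Mcm6 and Mcm5 had 58.9 ± 20.01 CPM (SD, n = 4 plates). Another unnamed cluster, of 190 cells, was led by Ppp2r1b and Slc1a3. It had 84.0 and 61.1 CPM of Ihh in pylorus replicates 2 and 3 and 64.55 and 49.1 CPM in corpus replicates 3 and 4.

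In neck-like cells the log2 difference of Ihh was 0.82 ± 0.27 (SE, n = 3 pylorus and 4 corpus plates, limma, unadjusted p = 0.0103, adjusted p = 1). Of 7248 genes tested there, 0.0552% passed, and none of the 3 members tested was among them, while 2.17% separated the regions with pylorus higher. Without corpus replicate 1 the difference was 0.66, and in pylorus replicates 2 and 3 and corpus replicates 3 and 4 alone it was 0.31 ± 0.21. In parietal-like cells Ihh ran the other way, at 0 and 7.77 CPM in pylorus replicates 2 and 3, against 9.83 and 9.23 CPM in corpus replicates 3 and 4, with 41 UMIs in all. The exact Poisson intervals overlapped, at 0 to 8.02 and 2.85 to 16.9 CPM in these pylorus plates and 6.16 to 14.9 and 4.91 to 15.8 CPM in these corpus plates. That difference, -1.60 ± 0.67, did not pass (limma, adjusted p = 0.178). Without pylorus replicate 3 it was -2.60, resting on 1 pylorus plate with 0 Ihh UMIs in 12 cells, where the floor is 6.52 CPM. Shh and Ihh were often found in the same pit-like cells: 161 of 431 held both, 59 Shh alone, 111 Ihh alone and 100 neither, as far as counts this low can tell. Among 400 neck-like cells, 7 held both and 172 Ihh alone. Foxq1, a transcription factor of mucous cells (r = 0.85), Bace2, Vill, Kitl and Fam3c had the profiles most like that of Ihh.

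**Figure D2:**
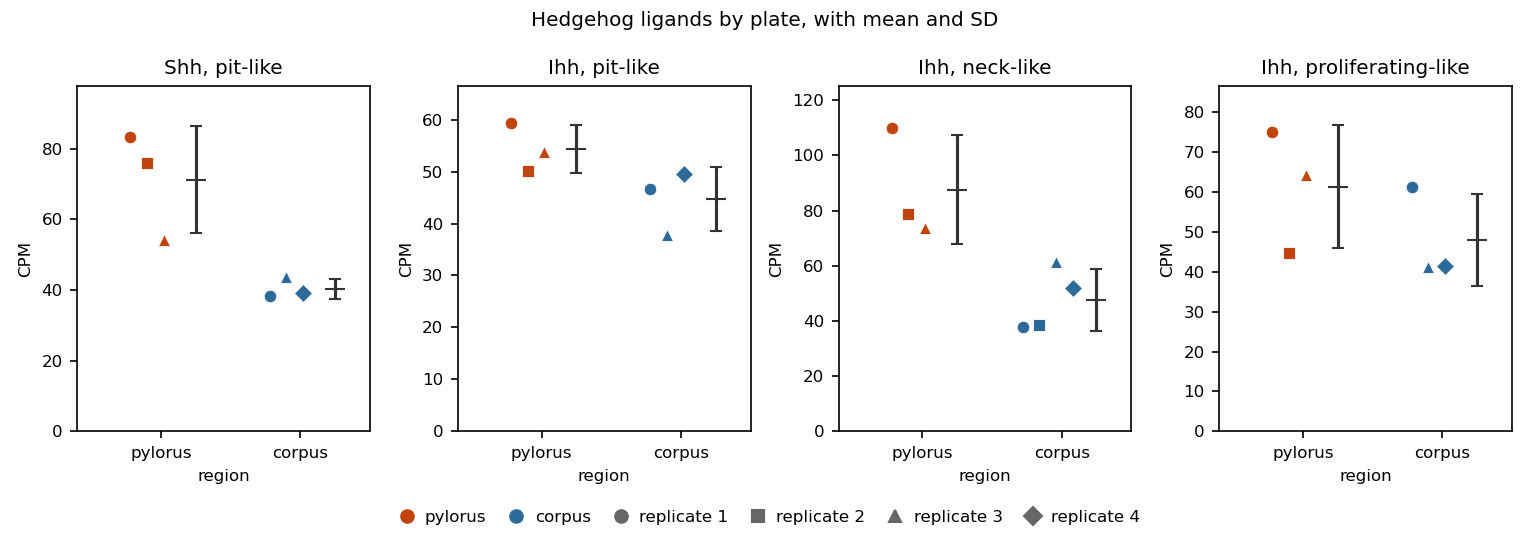
CPM of Shh in pit-like cells and of Ihh in pit-like, neck-like and proliferating-like cells, 1 point per plate, with bars for mean and SD over the plates of each labelled region. The pylorus plates lie above all corpus plates for Shh in pit-like and Ihh in neck-like cells, by a narrow margin for Ihh in pit-like cells, and overlap with them for Ihh in proliferating-like cells.

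Among the EGF receptor ligands, Tgfa and Areg were found in pit-like cells and Egf in chief-like cells. Their promoters are shown because Areg and Egf had nearly opposite class patterns: 250 bases before to 50 after each start, from RefSeq on GRCm38.p6, another build than the mm9 of the tables. Promoters were looked at for 5 of the 8 members, with 2 starts for Egf, and not for Shh, Hbegf and Fst. The Areg promoter lies at chr5:91139349-91139648 on the plus strand and those of Egf at chr3:129755273-129755572 and chr3:129725037-129725336 on the minus strand. Capitals mark matches on either strand to TATAAA, the core element found before many starts (in 13.6% of 32851 promoters), to TGACGTCA, the cAMP response element (in 1.79%), and to CAGCTG, an E-box (in 16.3%). The matches do not overlap. The Areg promoter held all 3 and the Egf promoters none, a description of these letters in these windows. Those of Ihh and Tgfa, also found in pit-like cells, held none either, and that of Igf1 held CAGCTG alone. A tie of these motifs to the class patterns was not tested.
Areg: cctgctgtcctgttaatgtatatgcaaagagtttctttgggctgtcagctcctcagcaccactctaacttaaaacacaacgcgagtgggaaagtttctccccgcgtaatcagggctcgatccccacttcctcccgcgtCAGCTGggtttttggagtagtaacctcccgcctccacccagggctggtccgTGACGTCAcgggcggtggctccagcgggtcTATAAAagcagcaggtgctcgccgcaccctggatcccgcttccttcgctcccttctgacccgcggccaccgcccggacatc
Egf, first start: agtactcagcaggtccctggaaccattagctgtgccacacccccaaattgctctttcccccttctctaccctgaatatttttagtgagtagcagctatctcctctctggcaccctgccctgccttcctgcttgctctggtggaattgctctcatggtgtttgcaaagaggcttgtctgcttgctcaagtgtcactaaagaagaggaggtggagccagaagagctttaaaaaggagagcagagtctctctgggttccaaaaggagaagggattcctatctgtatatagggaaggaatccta
Egf, second start: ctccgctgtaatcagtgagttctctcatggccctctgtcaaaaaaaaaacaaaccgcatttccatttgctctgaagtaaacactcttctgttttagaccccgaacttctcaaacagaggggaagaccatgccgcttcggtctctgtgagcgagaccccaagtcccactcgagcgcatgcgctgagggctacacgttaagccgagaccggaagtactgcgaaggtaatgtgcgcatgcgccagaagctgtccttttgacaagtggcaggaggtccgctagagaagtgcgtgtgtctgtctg

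Tgfa, known from surface mucous and parietal cells, stood at 17.7, 10.4 and 13.0 CPM in pit-like cells of pylorus replicates 1 to 3, against 28.3, 13.5 and 6.43 CPM in those of corpus replicates 1, 3 and 4. The groups overlapped, and the log2 difference was 0.00 ± 0.40 (limma, adjusted p = 1). Without corpus replicate 1, the highest plate, it was 0.35 (limma, adjusted p = 0.918), and the groups still overlapped. Endocrine-like cells had a mean of 11.2 ± 9.37 CPM (SD, n = 7 plates) and neck-like cells 4.42 ± 2.00, while parietal-like cells had 4 UMIs in 139 cells, a mean of 0.83 ± 0.94 CPM (n = 4). Pit-like cells lay above endocrine-like cells in 5 of 6 plates, within the spread of both. Pklr, Marcks, Pqlc1, Mlf2 and Ttc39a had the nearest profiles (r = 0.79 to 0.77).

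Areg, which encodes amphiregulin, stood at 6.32, 13.4 and 7.14 CPM in pit-like cells of pylorus replicates 1 to 3, against 21.2, 3.47 and 1.07 CPM in corpus replicates 1, 3 and 4. Corpus replicate 1 was the highest of all 6 plates and the other corpus plates the lowest. In proliferating-like cells it stood at 47.8, 14.2 and 4.10 CPM in pylorus replicates 1 to 3, against 10.7, 0 and 3.32 CPM in corpus replicates 1, 3 and 4, again with overlap. The level in pylorus replicate 1 was 7 UMIs in 1 of 15 cells, so a single cell carries the highest value of this class. Pit-like cells lay below proliferating-like cells in 3 of 6 plates. Endocrine-like, parietal-like, tuft-like and mast-like cells had 0 UMIs, and for endocrine-like cells 0 of 282 cells allows a share of up to 1.34% with a UMI. The log2 difference in pit-like cells was 0.59 ± 0.63 over all plates (limma, adjusted p = 1), and 1.30 without corpus replicate 1 (limma, adjusted p = 0.917). In pylorus replicates 2 and 3 and corpus replicates 3 and 4 alone it was 1.48 ± 0.37 (limma, adjusted p = 0.0304), where 2.23% of 8913 genes passed and Areg was 1 of 5 members tested to do so. That fit had 2 degrees of freedom of Areg itself and 19.8 pooled over genes. Profiles most like that of Areg were those of Sprr2b (r = 0.87), Gsdmc4, Sntg2, Esd and Pycard.

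Egf stood at 22.9, 11.9 and 8.72 CPM in chief-like cells of pylorus replicates 1 to 3, against 23.8, 12.9 and 9.26 CPM in those of corpus replicates 2 to 4. The ranges of the regions covered each other, with a log2 difference of -0.05 ± 0.40 (n = 3 each, limma, adjusted p = 0.998). Of the chief-like cells, 26.4% (73 of 277, 95% Wilson interval 21.5 to 31.8%) had an Egf UMI. Pit-like cells had 0 in 431, which allows a share of up to 0.883%, at a median depth of 27772 UMIs against 29586 in chief-like cells. Endocrine-like cells, with 12 UMIs, came next at a mean of 4.55 ± 6.07 CPM and lay below chief-like cells in 6 of 6 plates. Over all kept cells, Egf had 1 UMI in corpus replicate 1, which held 5 chief-like cells. Lama4 (r = 0.85), Nucb2, Osbp2, 1810020O05Rik and Syne4 had the most similar profiles.

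Hbegf, a ligand induced in many epithelia by injury, was the broadest of these ligands. In chief-like cells it stood at 19.6, 38.7 and 44.7 CPM in pylorus replicates 1 to 3, against 22.7, 12.0 and 10.4 CPM in corpus replicates 2 to 4. Pylorus replicates 2 and 3 were the highest and corpus replicates 3 and 4 the lowest, and pylorus replicate 1 lay below corpus replicate 2. The log2 difference was 1.11 ± 0.36 (limma, unadjusted p = 0.0113, adjusted p = 0.998). Of 7061 genes tested in chief-like cells 0% passed, with 162 at an unadjusted p under 0.05 and 0 with voom weights, and 4 members were tested. In pylorus replicates 2 and 3 and corpus replicates 3 and 4 alone the difference was 1.72 ± 0.27 (limma, adjusted p = 0.000295), 0.631% of 7128 genes passing there, Hbegf and Igf1 among the 4 members tested. That fit had 2 degrees of freedom of Hbegf itself and 26.3 pooled over genes. In endocrine-like cells Hbegf stood at 39.4, 54.0 and 72.7 CPM in pylorus replicates 1 to 3, against 0, 42.5, 35.9 and 30.6 CPM in corpus replicates 1 to 4, and in neck-like cells its mean was 38.4 ± 10.8 CPM (SD, n = 7). The means of chief-like, proliferating-like and pit-like cells, 24.7, 23.7 and 21.5 CPM, were within each other's SD. Parietal-like cells had 8.70 and 6.47 CPM in pylorus replicates 2 and 3, against 2.23 and 3.55 CPM in corpus replicates 3 and 4, on 20 UMIs. Entpd2, Gfod2, Hid1, D10Bwg1379e and Tmed4 had the nearest profiles, with r of 0.78 to 0.74.

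Igf1, a growth factor best known from liver and from stromal cells, was found here in epithelial classes of the lower gland, and in parietal-like cells it fell in pylorus plates. It stood there at 10.9 and 9.06 CPM in pylorus replicates 2 and 3 (12 and 20 cells), against 54.0 and 54.0 CPM in corpus replicates 3 and 4 (56 and 42 cells). The log2 difference was -2.52 ± 0.30 (n = 2 plates each, limma, adjusted p = 0.000159). In this fit 7.01% of 6860 genes passed, Igf1 being 1 of 2 members tested to do so, and 25.7% of genes separated the regions with pylorus lower, as both members did. With 4 plates, 2 degrees of freedom came from Igf1 itself and 14.3 from pooling, so the p-value rests mostly on other genes. Leaving out any 1 of the 4 plates gave differences of -2.67 to -2.37, all passing, with the lone plate of a region assumed to vary as the other region's do. Of parietal-like cells, 7 of 34 had an Igf1 UMI in pylorus plates, against 68 of 105 in corpus plates, and with cells thinned to 3000 UMIs the shares were 2.56% and 14.2%.

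In neck-like cells Igf1 stood at 212, 47.2 and 54.5 CPM in pylorus replicates 1 to 3, against 101, 164, 94.9 and 103 CPM in corpus replicates 1 to 4. Pylorus replicate 1 was the highest of the 7 plates and pylorus replicates 2 and 3 the lowest. In chief-like cells the order was the same, with 101, 18.1 and 28.3 CPM in pylorus replicates 1 to 3, against 73.9, 73.9 and 47.5 CPM in corpus replicates 2 to 4. The differences over all plates did not pass, at -0.48 ± 0.40 in neck-like and -0.70 ± 0.51 in chief-like cells (limma, adjusted p = 1 and 0.998). Without pylorus replicate 1 they were -1.10 and -1.39. In pylorus replicates 2 and 3 and corpus replicates 3 and 4 alone both passed, at -1.04 ± 0.20 (adjusted p = 0.00794, limma) in neck-like and -1.31 ± 0.25 (adjusted p = 0.00377, limma) in chief-like cells. In the neck-like fit of those plates 0.813% of 7630 genes passed. These fits had 2 degrees of freedom of Igf1 itself, with 19.9 pooled over genes in neck-like and 26.3 in chief-like cells. Igf1 was itself a leading gene of the neck-like cluster that came mostly from pylorus replicate 1 and corpus replicates 1 and 2, although it took no part in the clustering. In corpus replicate 1 that cluster had 152.6 CPM of Igf1. The other 19 of the plate's 70 neck-like cells formed a cluster led by Gkn3 and Cldn2, found in that plate alone, with 5.37 CPM. Neck-like cells lay above chief-like cells in 6 of 6 plates, and pit-like cells had a mean of 4.74 ± 2.42 CPM (SD, n = 6). The 7 stromal markers looked for summed to 2.29 to 5.64 CPM in the pylorus plates and 0.849 to 36.8 CPM in the corpus plates, the highest being corpus replicate 1. By class their sum was 5.00 CPM in neck-like, 6.97 in chief-like and 1.21 CPM in parietal-like cells, with the fibroblast genes Lum and Pdgfra at 0 in each. Ghr, the growth hormone receptor that drives Igf1 in liver, had the profile most like that of Igf1 (r = 0.77), followed by Spp1, Azgp1, Isl1 and Synm.

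**Figure D3:**
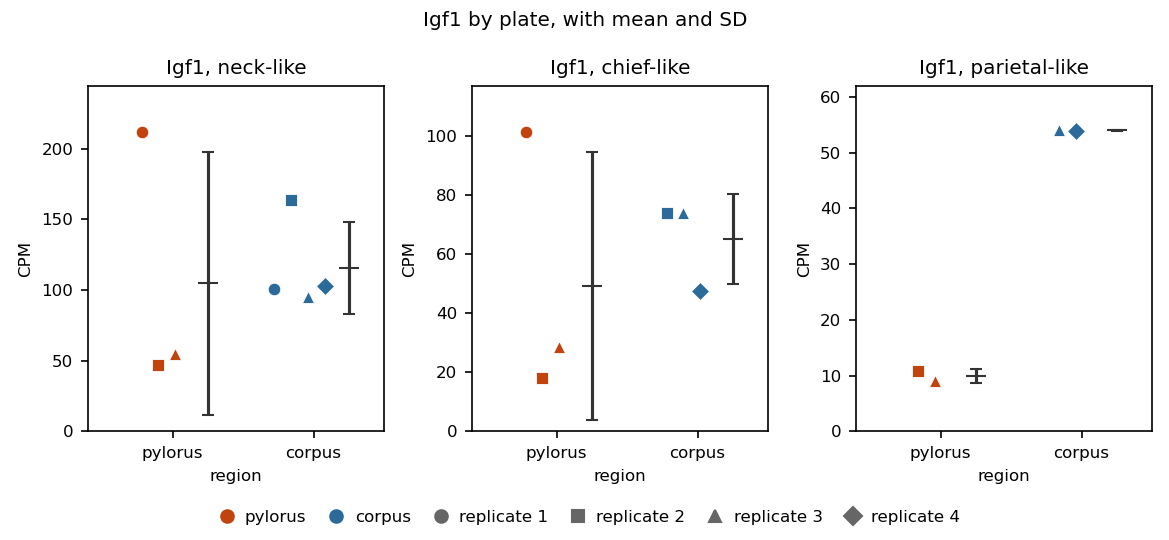
CPM of Igf1 in neck-like, chief-like and parietal-like cells, 1 point per plate, with bars for mean and SD over the plates of each labelled region. Pylorus replicate 1 is the highest plate in neck-like and chief-like cells and pylorus replicates 2 and 3 the lowest, and in parietal-like cells the pylorus plates stand at 10.9 and 9.06 CPM and the corpus plates at 54.0 CPM.

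Fst was found in endocrine-like cells, at levels that differed widely between plates. It stood at 315, 470 and 456 CPM in pylorus replicates 1 to 3, against 0, 864, 25.7 and 82.4 CPM in corpus replicates 1 to 4. Corpus replicate 2 was the highest plate and the other corpus plates the lowest, so the groups overlapped. The log2 difference was 3.06 ± 1.59 (SE, limma, adjusted p = 0.984). Of 6258 genes tested in endocrine-like cells 0% passed, with 105 at an unadjusted p under 0.05 and 0 with voom weights, and 2 members were tested. Without corpus replicate 1, whose endocrine-like cells had a median of 1919 UMIs, the difference was 1.53, without corpus replicate 2 it was 4.47, and with voom weights it was 1.26. In pylorus replicates 2 and 3 and corpus replicates 3 and 4 alone it was 3.15 ± 0.28 (limma, adjusted p = 2.23e-09), with 0.296% of 6416 genes passing and Fst 1 of 2 members tested to do so. That fit leaves out corpus replicate 2, the highest plate. It had 2 degrees of freedom of Fst itself and 32.6 pooled over genes, so its p-value rests mostly on other genes. All other named classes had means of 4.41 CPM or lower.

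The Fst transcripts were unevenly spread over endocrine-like cells, 100 of 282 having any. By plate, 7 of 19, 19 of 48 and 13 of 40 had an Fst UMI in pylorus replicates 1 to 3, against 0 of 23, 49 of 85, 7 of 34 and 5 of 33 in corpus replicates 1 to 4. The 5 cells with most Fst held 93.8, 69 and 93.5% of the class's Fst UMIs in pylorus replicates 1 to 3, against 54.1, 80 and 100% in corpus replicates 2 to 4, on 1240, 10 and 35 UMIs. Corpus replicate 2 thus had Fst in most of its endocrine-like cells. These cells were also the deepest, at a median of 16507 UMIs, against 1919 to 14468 in the other plates. The share of the 5 highest cells depends on the number of cells, so it does not compare evenness between plates. Cells were then grouped, after the values were seen, by their most abundant hormone transcript. Over all plates, Fst stood at 545 CPM in the 147 cells led by Ghrl (ghrelin; exact Poisson interval 514 to 578) and 541 CPM in the 106 led by Hdc, the enzyme of histamine synthesis (501 to 583). The 22 cells led by Sst (somatostatin) and the 5 led by Gast had 0 Fst UMIs, for which the floor of 3 counts is 21.8 CPM in the cells led by Sst and 178 CPM in those led by Gast. All 5 cells led by Gast and 7 of those led by Sst came from corpus replicate 1, where no endocrine-like cell had Fst. For Gast, hormone and plate thus cannot be told apart. In cells led by Ghrl, Fst stood at 694, 510 and 461 CPM in pylorus replicates 1 to 3, against 0, 874, 13.4 and 36.4 CPM in corpus replicates 1 to 4. In cells led by Hdc it stood at 131, 397 and 443 CPM in pylorus replicates 1 to 3, against 0, 899, 45.4 and 152 CPM in corpus replicates 1 to 4, corpus replicate 2 again being the highest plate. In the endocrine-like cluster of 38 cells, with Sst and Ghrl among its leading genes, 1 cell had Fst, with 1 UMI at a depth of 23809. The other cells with Fst, those led by Ghrl included, lay in the cluster of 244 cells with Hdc and Slc18a2 among its leading genes. Whether cells led by Ghrl in that larger cluster are ghrelin cells was not tested. Ghrl was also found in mast-like cells, at 1200 and 1334 CPM in pylorus replicates 2 and 3 and 400 and 122 CPM in corpus replicates 3 and 4, and its part in the grouping by hormone was not tested. Mast-like cells had 1 Fst UMI in each of the same pylorus plates, at 11.1 and 6.51 CPM, and 0 in the same corpus plates. Both values lie under their floors of 33.3 and 19.5 CPM, so they do not set the regions apart. Nptx1 (r = 0.95), Cidea, Clip3, C8b and Col8a2 had the profiles most like that of Fst.

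**Figure D4:**
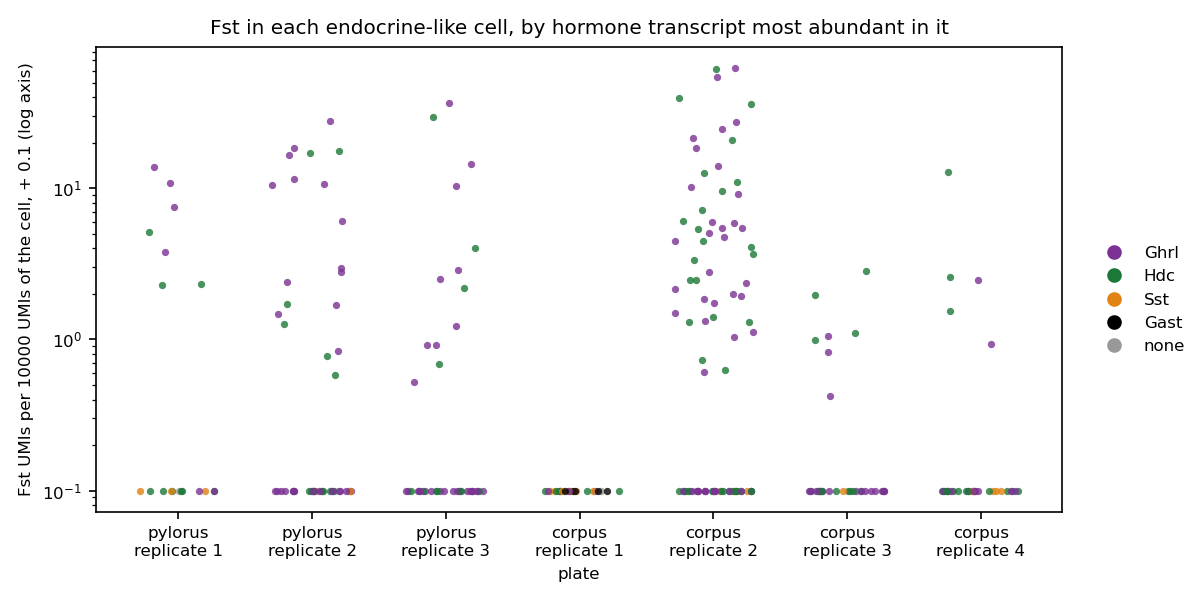
Fst UMIs per 10000 UMIs of each endocrine-like cell, plus 0.1 (log axis), by plate, pylorus plates left, with cells coloured by their leading hormone transcript. Cells with Fst are led by Ghrl or Hdc, are most frequent in corpus replicate 2 (49 of 85), and are missing among the 23 cells of corpus replicate 1.

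Over all kept cells of a plate, none of the 8 members passed (limma, adjusted p = 1 for each), and here a lower share of a class and less RNA per cell cannot be told apart. Of 12003 genes tested 0.0167% passed, 146 having an unadjusted p under 0.05, and no member was among these; voom weights gave 0 genes. Shh stood at 28.3, 25.7 and 17.3 CPM in pylorus replicates 1 to 3, against 16.3, 2.21, 13.4 and 14.6 CPM in corpus replicates 1 to 4. It was the member whose groups did not overlap, as 1.69% of genes did with pylorus higher, and corpus replicate 2, its lowest plate, held 4 pit-like cells. Its log2 difference was 1.13 ± 0.52, and 0.60 without corpus replicate 2. Ihh stood at 54.7, 43.9 and 39.7 CPM in pylorus replicates 1 to 3, against 52.0, 18.9, 32.6 and 35.7 CPM in corpus replicates 1 to 4. Igf1 stood at 79.9, 13.0 and 14.3 CPM in pylorus replicates 1 to 3, against 30.5, 71.7, 40.6 and 33.5 CPM in corpus replicates 1 to 4. For Igf1 the plates of the regions overlapped, and for Ihh they did so through corpus replicate 1 alone, without which the difference of 0.50 ± 0.31 was 0.64 (limma, adjusted p = 0.967). Fst stood at 12.2, 33.1 and 31.9 CPM in pylorus replicates 1 to 3, against 0, 213, 1.37 and 4.64 CPM in corpus replicates 1 to 4. Its mean was lower in pylorus plates, 26.3 ± 12.1 against 49.9 ± 95.3 CPM in corpus plates (SD, n = 3 and 4, TMM-scaled), while its log2 difference was 1.39 ± 1.38, the other 3 corpus plates lying below all pylorus plates.

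In pylorus replicates 2 and 3 and corpus replicates 3 and 4 alone, the plates alike in clusters, 4 of the 8 members passed over all kept cells, where 3.53% of 11978 genes did. Corpus replicate 2, left out here, was near these plates in depth and spike-in share, with a median of 19648 UMIs and 0.426%. It was set apart by its clusters, and it held 213 CPM of Fst and 71.7 CPM of Igf1. Hbegf rose by 0.76 ± 0.14, Areg by 1.08 ± 0.25 and Fst by 2.78 ± 0.24 on the log2 scale, while Igf1 fell by 1.43 ± 0.15 (limma, adjusted p = 0.00803, 0.032, 3.55e-05 and 0.000115). Hbegf stood at 33.0 and 33.9 CPM in these pylorus plates, against 15.1 and 19.9 CPM in these corpus plates. In the other plates it stood at 23.3 CPM in pylorus replicate 1, against 31.6 and 25.5 CPM in corpus replicates 1 and 2, the opposite order. The p-values of this fit rest on 2 degrees of freedom of the gene itself and 11.03 pooled over genes, and no difference between the sets of plates was tested.

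**Figure D5:**
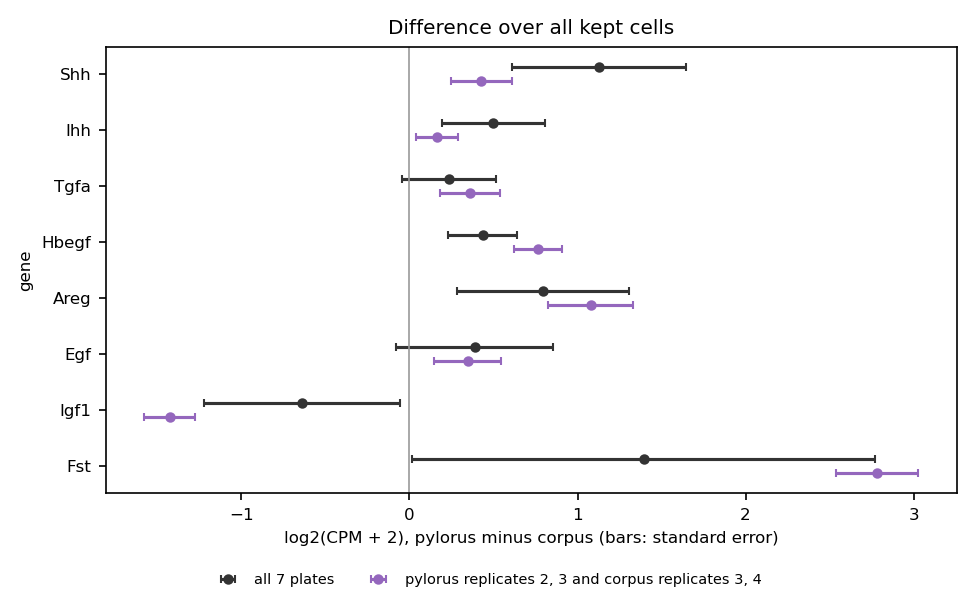
Log2 difference of each gene over all kept cells, pylorus minus corpus, with standard errors, from all 7 plates and from pylorus replicates 2 and 3 and corpus replicates 3 and 4 alone. Hbegf, Areg and Fst lie above 0 and Igf1 below 0 in both fits, and these 4 genes passed in the fit of 4 plates alone. Over all plates the mean CPM of Fst was lower in pylorus, 26.3 against 49.9 in corpus.

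Genes that receive or shape these signals were followed by lists, 91 genes in all with the members, 65 of them tested over all kept cells, and 0 passed there. The median log2 differences were -0.03 for 8 hedgehog genes, 0.11 for 8 EGF family ligands and receptors, -0.04 for 15 genes of ligand shedding and receptor feedback, -0.22 for 12 IGF genes and 0.01 for 22 activin and BMP genes, against 0.00 for all genes. Of the IGF genes, 10 of 12 were lower, against 49.7% of all genes. The hedgehog targets Ptch1 and Gli1 had 73 UMIs and 1 UMI in all kept cells and were named after these counts were seen. Disp1, which releases hedgehog ligands from the cell, had 16.3 ± 6.77 CPM in pit-like cells (SD, n = 6). Smo, the signal transducer, had 645 UMIs and its mean was highest in neck-like cells at 33.3 ± 8.94 CPM (SD, n = 7). Btc, a further EGF family ligand, had means of 35.8 ± 16.4 CPM in proliferating-like and 28.1 ± 9.24 CPM in pit-like cells. Erbb2, a receptor of that family, had 28.6 ± 5.55 CPM in pit-like and 4.73 ± 2.24 CPM in chief-like cells (SD, n = 6). The protease Adam10 had 175 ± 22.3 CPM in pit-like cells. Igf1r, the Igf1 receptor, had means of 213 CPM in neck-like, 148 in chief-like and 13.8 CPM in pit-like cells. Id1 and Id2, targets of BMP signals, had 434 and 165 CPM in pit-like cells and 37.7 and 26.1 CPM in chief-like cells. Neither was particular to pit-like cells. Id1 had 403 CPM in proliferating-like cells, and Id2 had 200 CPM in mast-like, 199 in proliferating-like and 191 CPM in parietal-like cells.

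In parietal-like cells, where 7.01% of 6860 genes passed, 7 genes of these lists did, all lower in pylorus plates. They were 3 of 6 IGF genes tested, Igf1 among them, 3 of 17 activin and BMP genes, 1 of 6 genes of shedding and feedback and 0 of 1 hedgehog gene. Of the 481 genes that passed in all, 264 were lower. Igf1r had 66.6 ± 2.98 CPM in pylorus plates and 118 ± 28.1 CPM in corpus plates (SD, n = 2 each, TMM-scaled), and Igfbp2, a binding protein of IGFs, had 115 ± 8.53 CPM in pylorus plates and 183 ± 21.8 CPM in corpus plates (adjusted p = 0.0306 for Igf1r and 0.0321 for Igfbp2, limma). Bmp7, a BMP ligand, had 6.92 ± 1.22 CPM in pylorus plates and 24.2 ± 7.44 CPM in corpus plates. The BMP receptor Bmpr1b had 23.7 ± 3.64 CPM in pylorus plates and 67.5 ± 1.92 CPM in corpus plates, and Bmpr2 had 40.8 ± 0.51 CPM in pylorus plates and 72.9 ± 2.78 CPM in corpus plates. Lrig1, a negative regulator of EGF receptors, had 54.5 ± 0.06 CPM in pylorus plates and 98.2 ± 3.66 CPM in corpus plates. The adjusted p was 0.0294 for Bmp7, 0.00242 for Bmpr1b, 0.034 for Bmpr2 and 0.0198 for Lrig1 (limma), on the same 4 plates as Igf1.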

How the data were processed

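The authors deposited unnormalised UMI counts, 1 table per plate with genes in rows and, per the file headers, 1 column for each well; the values are whole numbers up to 4095. Cells came from glands isolated by chelation, digested, sorted as DAPI-negative and processed by CEL-seq2, per the labels' protocols. The submitters' processing notes name mm9 as the genome build. Which aligner and counter were used is not given in the sources used here. The members and gene lists were chosen with earlier results of these data known.

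Wells with at least 1000 UMIs were clustered with scanpy 1.11.5, on 2000 variable genes from which members and mitochondrial genes were dropped (30 components, 15 neighbours, Leiden resolution 1.0), without batch correction. A cluster was named from at least 3 detected markers with a mean log2 fold of at least 0.5. A sorter filled the wells, and no doublet caller was run. Named genes were the members, list genes that passed or else the 2 most abundant, and the 5 nearest profiles. Cluster, hormone and stromal comparisons were added after seeing values.

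Counts were summed per plate and class. In place of the planned count model, which the layout of the tables did not allow, limma 3.58.1 in R 4.3.3 was run with a mean-dependent prior on TMM-scaled log2 CPM with a pseudocount of 2, for genes with at least 10 counts at the median library. Plate levels are CPM of all UMIs, and means of fits are TMM-scaled. The plates held 2646492 to 9511078 UMIs in all wells, and 3 counts in the kept cells of a plate correspond to 0.316 to 1.15 CPM. The fit was tested on simulated data. Alternatives were other plates, scaling, pseudocount, filter, weights, depth minimum and clustering.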

Additional observations from a re-analysis of the deposited data

Results flagged for a closer look

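In 23 groups of 4 corpus plates, 8 values stood apart from the other 3 plates by Dixon's test, 2 of them single UMIs; chance alone marks about 1 in 20 groups. Over all kept cells, corpus replicate 1 had the highest Tgfa, 14.1 CPM with the nearest plate at 5.27, and the highest Areg, 10.8 with the nearest at 1.02 CPM. Corpus replicate 2 had the highest Egf, 8.66 with the nearest at 1.68 CPM, and the highest Fst, 213 with the nearest at 4.64 CPM. It held 85 endocrine-like cells, against 23 to 34 in the other corpus plates. In endocrine-like cells alone its Fst was 864 CPM, with the nearest plate at 82.4. In neck-like cells, Igf1 was 164 CPM in corpus replicate 2 with the nearest at 103. Areg at 1.90 CPM in neck-like cells of corpus replicate 1 and Egf at 0.84 CPM in those of corpus replicate 3 were 1 UMI each with the other corpus plates at 0, under their floors of 5.69 and 2.52 CPM, where the test always marks the plate. These 2 values carry no information.

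For Ihh, all pylorus plates lay above the corpus plates in neck-like cells and below them in parietal-like cells. The log2 differences lay 2.42 apart, which was not tested, and the parietal-like pylorus plates held 0 and 6 UMIs of Ihh. The wells left out for holding under 1000 UMIs held 6 UMIs of Ihh and 4 of Fst, and at most 3 of each other member.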

How the results depend on the processing

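Of 381 repeats of the 28 differences between regions, 349 kept direction and side of the threshold, 10 came to pass and 22 turned direction; none that passed was lost in the fits that could be made. The count of members passing over all kept cells, 0, was 4 in pylorus replicates 2 and 3 and corpus replicates 3 and 4 alone, and the count of list genes went to 8 there (the 4 members with Bmpr1b, Dusp6, Erbb3 and Igfbp2). The count in single classes, 1, was 6 in those plates, Igf1 in parietal-like cells included, and 1 to 2 with each plate left out, the second being Ihh in parietal-like cells (-2.60) without pylorus replicate 3. The cause was not tested. With a replicate block the class count was 0, since parietal-like cells reach 10 cells in both regions for number 3 alone and could not be fitted. Whether the numbers pair the plates is not given by the labels and cannot be settled from deviations, which correlated at 0.452, -0.108 and 0.468 for same-numbered plates. For pylorus replicates 1 and 3 the same-numbered corpus plate was the nearest, though pylorus replicate 3 correlated at 0.457 with corpus replicate 4. Under the replicate block Areg, Hbegf and Tgfa in pit-like cells turned to -0.28, -0.022 and -0.255, and Shh there was 0.77. Tgfa in pit-like cells also turned to -0.037 with scaling to all UMIs and -0.076 at a Leiden resolution of 0.6. Hbegf in proliferating-like cells turned to 0.047 with voom weights and 0.481 in the 4 plates, where Hbegf in neck-like and Ihh in chief-like cells were at -0.033 and -0.072. With each plate left out, differences that turned ranged from -0.037 to 0.497 (Hbegf), -0.536 to 0.079 (Igf1), -0.416 to 0.351 (Tgfa) and -0.008 to 1.301 (Areg) in pit-like cells, -0.40 to 0.26 (Egf) and -0.19 to 1.07 (Ihh) in chief-like cells, and -0.92 to 0.34 (Hbegf) and -0.34 to 1.59 (Shh) in proliferating-like cells. Depth limits Areg, Egf and Tgfa most, with 139 to 306 UMIs each.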
